A study of Mus musculus with 28 samples.

Results

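The comparison set cells of wild-type (WT) monocyte origin recovered from surgically inflamed small intestine against such cells recovered from untouched small intestine. It covered 10 of the 28 samples of the series, each from 1 recipient mouse, chosen by their sample labels and by no measured value. The 5 WT inflamed samples came from C57BL/6 CCR2-/- recipients whose small intestine had been surgically manipulated 1 day before C57BL/6 WT monocytes were transferred. The 5 WT control samples came from C57BL/6 CCR2-/- recipients that likewise received C57BL/6 WT monocytes but had undergone no surgery, so the controls were not sham-operated. In both groups 100 donor-derived cells were sorted from the small intestine at day 1 after transfer, and their RNA was turned into cDNA, pre-amplified and read as barcode counts on a NanoString panel. CCR2 is the receptor that monocytes use to leave the bone marrow and enter inflamed tissue, and in these mice it was missing in the host but present in the transferred cells. The markers of the sort, the ages of the mice and whether donors were pooled are not given in the sources used here.

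Classical monocytes circulate after leaving the marrow and enter the gut wall in steady state and in inflammation. In a healthy intestine they turn in steps into resident macrophages, which gain MHC class II and CX3CR1 and make IL-10. In an inflamed intestine that course is altered, and the incoming cells produce cytokines, chemokines for further monocytes and neutrophils, and tissue repair enzymes. TREM-1, encoded by Trem1, is an activating receptor of monocytes and neutrophils that amplifies signals of Toll-like receptors.

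The panel named 72 targets, of which 57 had values beside the housekeeping genes Actb, Gapdh and Rpl19. Zbtb46, Stat3, Pparg, Nos2, Il4, Flt3, Cx3cl1, Csf2, Cd163 and Ccr8 were blank and were not analysed here, as were the housekeeping genes Gusb and Hprt. The total gene count ran from 925869 to 1574105 in WT inflamed samples and from 1095836 to 1466732 in WT control samples. The background limit, the mean of a sample's negative control probes plus 2 SD, ran from 16.7 to 40.1 counts in WT inflamed and from 26.3 to 46.7 counts in WT control samples. Levels below are normalised counts, which are counts scaled by the geometric mean of the 3 housekeeping genes. They compare samples for 1 target and not 2 targets with each other, since amplification and probes differ between targets. In sorted bulk samples, fewer cells expressing a gene and less RNA per cell cannot be told apart.

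The sequences just upstream of 4 of the genes at the centre of the comparison are shown because these genes split into a pair that was higher and a pair of interferon-induced chemokines that was not. They lie on mouse chromosome 5, and 3 of them encode CXC chemokines. Each is the RefSeq promoter window of 300 bases in build GRCm38.p6, from 250 bases before to 50 bases after the gene start, written 5′ to 3′ on the strand of the gene. Capitals mark matches to a consensus of the NF-kappaB site or to a pair of GAAA words spaced by 2 bases, the core of interferon-stimulated response elements. The searched NF-kappaB consensus is given by name because it needs letters for mixed bases.
Il6, chr5:30012864-30013163, plus strand: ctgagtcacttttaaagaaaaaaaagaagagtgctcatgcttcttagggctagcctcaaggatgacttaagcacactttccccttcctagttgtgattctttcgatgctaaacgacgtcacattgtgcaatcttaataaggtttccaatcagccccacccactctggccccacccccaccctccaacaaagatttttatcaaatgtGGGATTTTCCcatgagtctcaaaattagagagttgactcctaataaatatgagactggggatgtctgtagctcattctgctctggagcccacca
Cxcl1, chr5:90890995-90891294, plus strand: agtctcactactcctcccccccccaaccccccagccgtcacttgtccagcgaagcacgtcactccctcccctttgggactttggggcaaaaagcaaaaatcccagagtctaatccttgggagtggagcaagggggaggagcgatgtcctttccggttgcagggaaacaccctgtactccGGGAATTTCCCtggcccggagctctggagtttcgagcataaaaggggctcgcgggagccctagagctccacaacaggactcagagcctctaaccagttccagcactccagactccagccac
Cxcl9, chr5:92328030-92328329, minus strand: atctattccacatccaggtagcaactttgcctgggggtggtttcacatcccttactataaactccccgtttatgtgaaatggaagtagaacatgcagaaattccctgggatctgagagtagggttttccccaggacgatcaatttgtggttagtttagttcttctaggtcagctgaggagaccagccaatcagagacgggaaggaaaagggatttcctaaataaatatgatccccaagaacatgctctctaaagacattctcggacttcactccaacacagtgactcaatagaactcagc
Cxcl10, chr5:92348840-92349139, minus strand: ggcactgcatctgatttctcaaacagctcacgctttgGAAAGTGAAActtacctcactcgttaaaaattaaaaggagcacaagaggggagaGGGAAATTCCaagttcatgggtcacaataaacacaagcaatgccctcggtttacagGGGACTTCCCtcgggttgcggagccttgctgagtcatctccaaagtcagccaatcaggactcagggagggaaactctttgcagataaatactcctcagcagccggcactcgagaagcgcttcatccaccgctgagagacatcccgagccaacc
The Il6 window held 1 match to the NF-kappaB consensus and the Cxcl1 window held 2 matches that overlap, read on opposite strands. The Cxcl10 window held 2 NF-kappaB matches and 1 spaced GAAA pair, and the Cxcl9 window held none of the searched letters. Among all 32851 windows of this length, 4.51% held the NF-kappaB consensus, 3.44% held the spaced GAAA pair and 8.3% held TTCNNNGAA, the third motif searched, on either strand. A match is a description of letters and not a shown site of binding.

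Cells from inflamed intestine carried far more transcript of inflammatory cytokines and of chemokines that draw monocytes and neutrophils. They carried less transcript of the interferon-induced chemokines Cxcl9 and Cxcl11, of the chemokine receptors Cx3cr1 and Ccr2, of the integrin genes Itgax and Itgb7 and of the growth factor receptor Csf1r. Of the 57 targets, 13 were higher (22.8%) and 11 were lower (19.3%) in WT inflamed than in WT control cells at an adjusted p under 0.05, 24 in all (42.1%), in edgeR's quasi-likelihood test with Benjamini-Hochberg adjustment over the 57. The count at an unadjusted p under 0.05 was 27. The groups did not overlap for 19 targets (33.3%), 12 of them higher and 7 lower, and 18 of the 19 also passed the test. The median log2 fold change over the 57 targets was -0.08. How many targets were lower depended on the scaling, with 14 higher and 3 lower under scaling by the positive control probes or without Rpl19 and 16 higher and 3 lower with the authors' normalised values. The median log2 fold change was then 0.24, 0.15 and 0.51. Cx3cr1 and Cxcl9 were among the lower targets in each of these cases, and Card9, Ccr2, Csf1r, Cxcl11, Itgax, Itgb7, Retnla and Tgfb1 did not pass the test there.

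**Figure D1:**
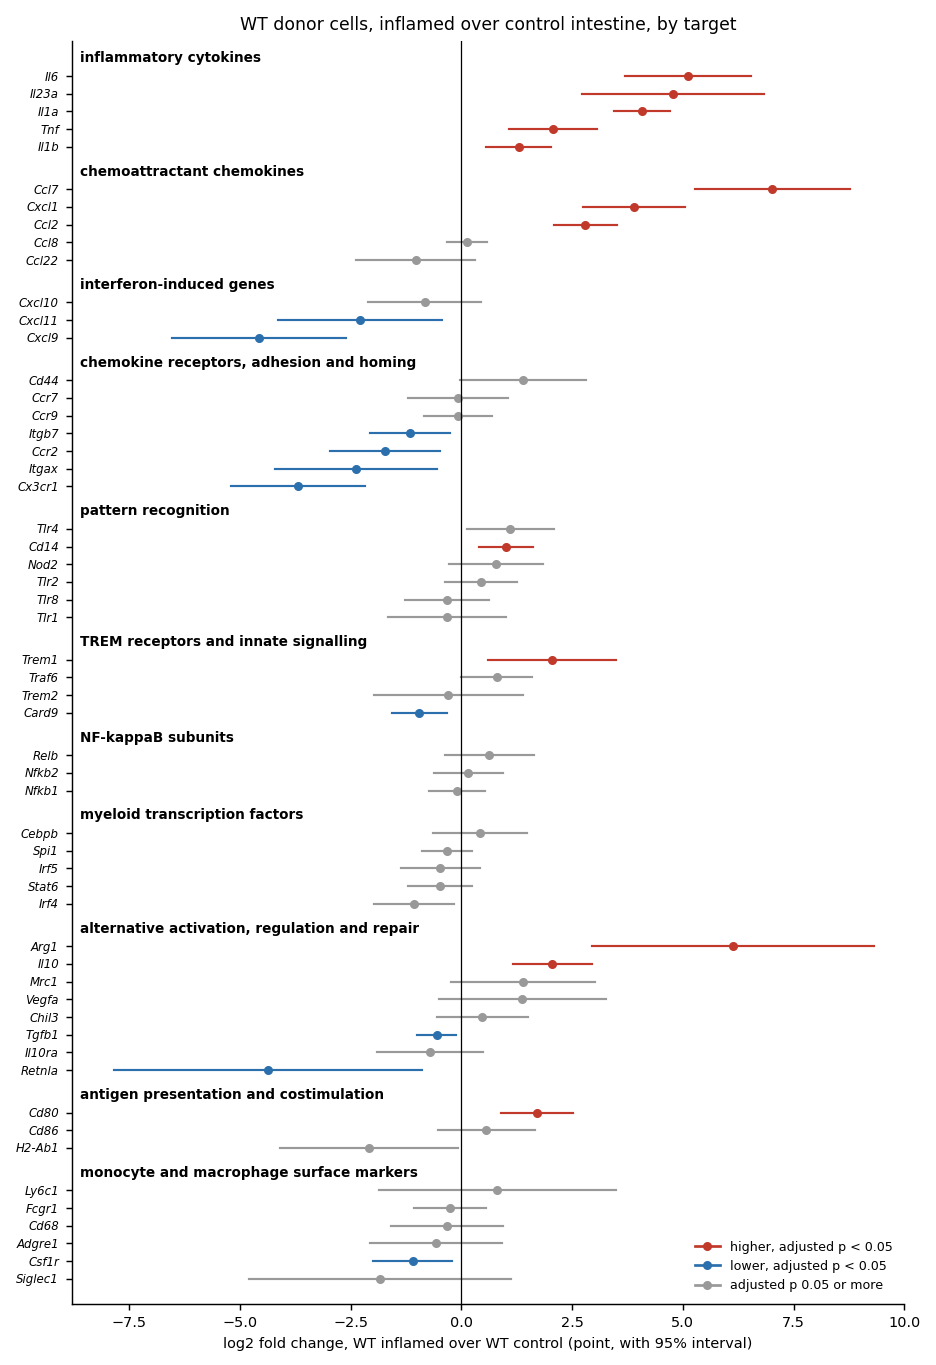
Log2 fold change of 55 of the 57 targets in WT inflamed over WT control cells, grouped by role, with the 95% confidence interval of the edgeR fit as a bar. The 5 inflammatory cytokines lie between 1.30 and 5.12. At an adjusted p under 0.05, 2 of the 3 interferon-induced chemokine genes shown were lower, against 19.3% of all 57 targets.

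The housekeeping genes themselves shifted against each other. Rpl19, a ribosomal protein gene, had 26.5 to 36.5 counts per 1000 counts of Actb, the cytoplasmic actin gene, in WT inflamed samples and 12.6 to 20.6 in WT control samples. The log2 difference of that ratio was 0.91 (exact permutation p = 0.0079). Gapdh, a glycolytic enzyme gene, lay between them, with log2 differences of 0.39 for Gapdh over Actb (exact permutation p = 0.0079) and 0.52 for Rpl19 over Gapdh (exact permutation p = 0.0159). Together the 3 genes made up 14.1% of gene counts in WT inflamed and 19.6% in WT control samples. The positive control probes had geometric means of 541, 555, 267, 247 and 459 counts in WT inflamed samples and 729, 527, 699, 564 and 725 counts in WT control samples. The part of these shifts in the counts of lower targets was not tested beyond the alternative scalings.

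All 5 inflammatory cytokines rose in the cells from inflamed intestine, with no overlap between the groups. Of all 57 targets, 22.8% were higher, and 33.3% had no overlap in either direction. Il1a encodes the interleukin 1 form that acts as an alarm signal when cells are damaged. Its level was 130684, 169763, 129827, 152872 and 161326 normalised counts in WT inflamed mice 1 to 5, against 9956, 9309, 11718, 8502 and 4899 in WT control mice 1 to 5. The 5 inflamed mice lay close together, with a highest value 1.3 times the lowest, and the log2 fold change was 4.07 ± 0.29 (SE of the fit, edgeR adjusted p = 8.48e-07). The companion gene Il1b, whose product needs cleavage by the inflammasome, was already high in control cells. It had 112818, 103149, 87791, 115803 and 125145 normalised counts in WT inflamed mice against 28336, 71535, 53599, 48321 and 19996 in WT control mice. The increase was smaller, a log2 fold change of 1.30 ± 0.33 (edgeR adjusted p = 0.0101).

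Il6, encoding the cytokine of fever and of the acute phase response, was near background in control cells. It had 3441, 1583, 553, 1479 and 4549 normalised counts in WT inflamed mice, against 72.6, 75.6, 73.0, 69.6 and 41.4 in WT control mice. Every inflamed mouse exceeded every control mouse several times over, and the log2 fold change was 5.12 ± 0.65 (edgeR adjusted p = 8.48e-05). Il23a encodes the p19 subunit of IL-23, which sustains IL-17-producing lymphocytes. Its level was 620, 1360, 2263, 7485 and 179 normalised counts in WT inflamed mice and 56.0, 91.3, 70.0, 135.9 and 78.9 in WT control mice. Inflamed mouse 4 was the highest and inflamed mouse 5 stood just above the highest control mouse. All inflamed mice were above all controls, and the log2 fold change was 4.78 ± 0.93 (edgeR adjusted p = 0.00216), and 3.67 without inflamed mouse 4. Tnf, the gene of tumour necrosis factor, reached 71718, 131677, 113790, 112559 and 63596 normalised counts in WT inflamed mice. In WT control mice it had 17314, 15788, 34140, 42326 and 7469. The 2 groups were apart, and the log2 fold change was 2.08 ± 0.45 (edgeR adjusted p = 0.0034).

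**Figure D2:**
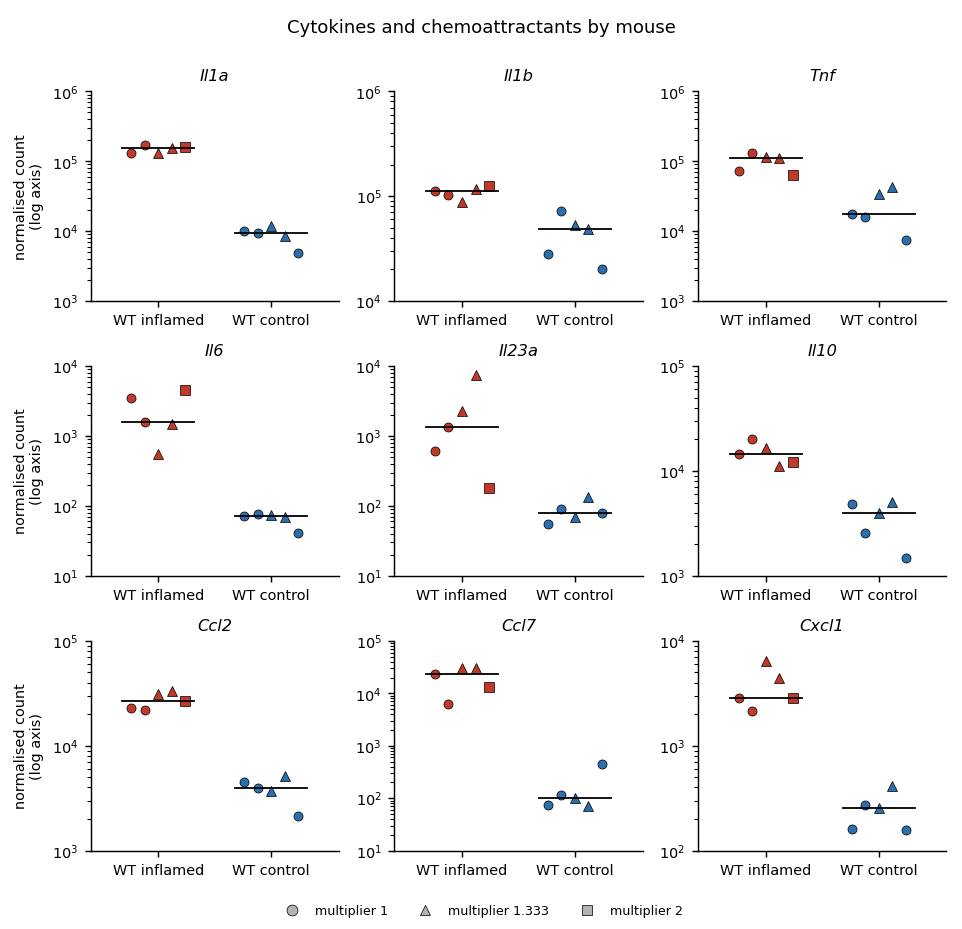
Normalised counts on a log axis in each WT inflamed mouse (left of each pair) and each WT control mouse (right) for cytokine and chemokine genes that were higher, with a bar at the group median and symbols for the multiplier of the deposited counts. Il6 had a median of 1583 in WT inflamed and 72.6 in WT control mice, and Ccl7 had 23582 in WT inflamed and 99.0 in WT control mice.

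Of the 5 chemoattractant chemokines, 3 rose, all without overlap of the groups, and the other 2 did not pass the test. The share higher among all 57 targets was 22.8%. Ccl2 and Ccl7 encode the main ligands of CCR2, the receptor the host mice lacked and the transferred cells carried. Ccl7 had 23582, 6254, 30983, 30490 and 13002 normalised counts in WT inflamed mice, against 74.6, 115.8, 99.0, 71.3 and 442 in WT control mice. Its log2 fold change of 7.02 ± 0.80 was the highest of the panel (edgeR adjusted p = 4.49e-05). Without control mouse 5, the control sample with the most Ccl7, it was 7.85. The unscaled Ccl7 counts of the control mice were only 72 to 342, against background limits of up to 46.7, so its size is not firm. Ccl2 had 22813, 21715, 31378, 33187 and 26482 normalised counts in WT inflamed mice and 4499, 3949, 3731, 5124 and 2160 in WT control mice. The rise of Ccl2, a log2 fold change of 2.80 ± 0.32 (edgeR adjusted p = 4.49e-05), was smaller than that of Ccl7, and Ccl2 was well above background in control cells. Cxcl1 encodes a ligand of CXCR2 that attracts neutrophils. It had 2862, 2139, 6479, 4436 and 2858 normalised counts in WT inflamed mice against 161, 274, 253, 414 and 158 in WT control mice. The groups were wide apart, and the log2 fold change was 3.90 ± 0.53 (edgeR adjusted p = 0.000125).

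The chemokines that did not pass the test attract other cells or act through other receptors. Ccl8 had 111 to 150 normalised counts in WT inflamed mice and 94.2 to 140.0 in WT control mice, a log2 fold change of 0.13 with a 95% interval of -0.33 to 0.58. Its unscaled counts were only 77 to 135, against background limits of up to 46.7, so this interval is that of a weak signal. Ccl22, which encodes a ligand of CCR4 made by dendritic cells and macrophages, had 488 to 2337 in WT inflamed and 738 to 4312 in WT control mice. Its log2 fold change was -1.03 (edgeR adjusted p = 0.221).

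The interferon-induced chemokines ran the other way, with 2 of 3 lower in cells from inflamed intestine, against 19.3% of all 57 targets. Cxcl9 encodes a ligand of CXCR3, the receptor of activated T cells, and is a typical gene of the interferon-gamma response. It had 162, 59.6, 95.3, 103.5 and 79.6 normalised counts in WT inflamed mice, against 1891, 3376, 104.0, 5544 and 983 in WT control mice. The groups overlapped through control mouse 3, which was as low as the inflamed mice, while the other 4 control mice lay far above. Its log2 fold change was -4.57 ± 0.89 (edgeR adjusted p = 0.00216). Cxcl11, another CXCR3 ligand, had 638, 48.5, 102.1, 134.6 and 128.0 normalised counts in WT inflamed mice and 850, 2190, 97.0, 807 and 1175 in WT control mice. Control mouse 3 was again the low one and inflamed mouse 1 the high one. The log2 fold change was -2.28 ± 0.84 (edgeR adjusted p = 0.0483), and the adjusted p was above 0.05 when any mouse other than inflamed mouse 1 or control mouse 3 was left out, with values of -2.35 to -1.80. Without inflamed mouse 1 the value was -3.31.

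Cxcl10, the remaining CXCR3 ligand, did not pass the test. It had 39588, 18321, 22457, 21768 and 12424 normalised counts in WT inflamed mice and 45377, 33971, 19814, 7020 and 97128 in WT control mice. The control mice spread so widely that the groups overlapped throughout, and the log2 fold change was -0.83 with a 95% interval of -2.11 to 0.45 (edgeR adjusted p = 0.299). The 3 CXCR3 ligands therefore passed the test for Cxcl9 and Cxcl11 and not for Cxcl10, and a difference between the genes was not tested.

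Among 7 chemokine receptors and adhesion or homing molecules, 4 fell and none rose, where 19.3% of all 57 targets were lower and 22.8% higher. Cx3cr1, the receptor that marks resident intestinal macrophages, had 220, 58.2, 156, 167 and 83.4 normalised counts in WT inflamed mice. In WT control mice it had 587, 3144, 2447, 2309 and 412. Control mice 1 and 5 were the low ones of their group but still above every inflamed mouse, and the log2 fold change was -3.70 ± 0.69 (edgeR adjusted p = 0.00197). Ccr2, the receptor for Ccl2 and Ccl7, had 21620, 6000, 47399, 42716 and 7783 normalised counts in WT inflamed mice. In WT control mice it had 82537, 137156, 71435, 69014 and 54844. The groups did not overlap, and the log2 fold change was -1.73 ± 0.57 (edgeR adjusted p = 0.034). Without inflamed mouse 1 or 5, or without control mouse 1 or 2, the adjusted p for Ccr2 was above 0.05 at values of -1.73 to -1.47.

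Itgax encodes CD11c, an integrin of dendritic cells and of intestinal macrophages. It had 445, 92.9, 1409, 2925 and 278 normalised counts in WT inflamed mice against 5023, 7794, 5594, 5848 and 2504 in WT control mice. Only inflamed mouse 4 overlapped the controls, and the log2 fold change was -2.38 ± 0.83 (edgeR adjusted p = 0.0426). It was -3.27 without inflamed mouse 4, and the adjusted p was above 0.05 without inflamed mouse 1, 3 or 5 or control mouse 1, 2, 3 or 4, at values of -2.52 to -2.14. Itgb7 encodes the beta 7 integrin chain that pairs with alpha 4 or alpha E for entry into and retention in the gut. It had 5002 to 18319 normalised counts in WT inflamed and 14495 to 33245 in WT control mice, a log2 fold change of -1.16 ± 0.41 (edgeR adjusted p = 0.0426). The adjusted p for Itgb7 was above 0.05 without any 1 of inflamed mice 1 to 4 or control mice 1 to 4, at values of -1.27 to -0.94.

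The other 3 members did not pass the test. Ccr9, the receptor for the small-intestinal chemokine CCL25, had 128 to 324 normalised counts in WT inflamed and 94.4 to 247 in WT control mice. Its log2 fold change was -0.08 with a 95% interval of -0.84 to 0.69, from unscaled counts of only 73 to 315. Ccr7, which guides cells to lymph nodes, had a log2 fold change of -0.07 (edgeR adjusted p = 0.895). Cd44, a hyaluronan receptor, had 3026 to 8386 in WT inflamed and 323 to 3593 in WT control mice, a log2 fold change of 1.39 (edgeR adjusted p = 0.105).

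**Figure D3:**
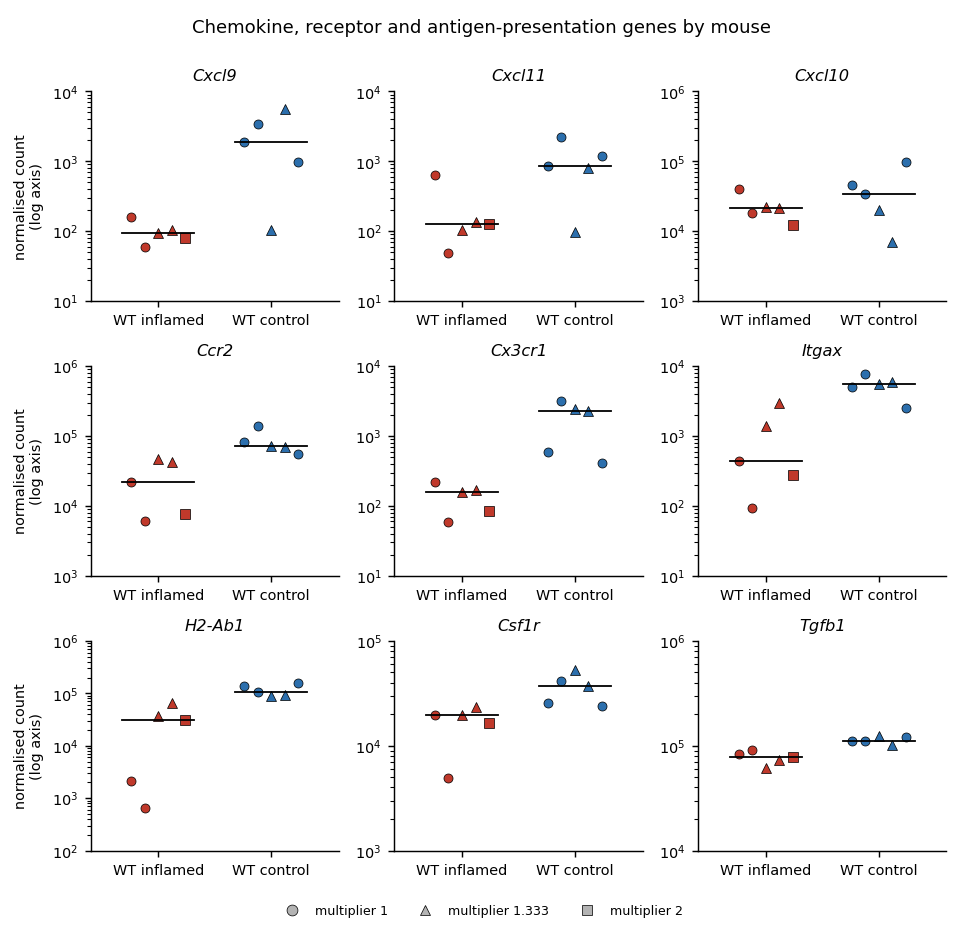
Normalised counts on a log axis in each WT inflamed mouse (left of each pair) and each WT control mouse (right) for interferon-induced chemokines, chemokine receptors, macrophage genes and Tgfb1, with a bar at the group median and symbols for the multiplier of the deposited counts. Cx3cr1 had a median of 156 in WT inflamed and 2309 in WT control mice, and H2-Ab1 ranged from 653 to 65228 within the WT inflamed mice alone.

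Among genes of alternative activation, regulation and repair, 2 of 8 rose, 2 fell and 4 did not pass the test, shares close to the 22.8% higher and 19.3% lower of all targets. One of those that fell, Retnla, rested on 1 mouse. Arg1 encodes arginase 1, which turns arginine into ornithine and is a marker of wound-associated macrophages. It had 16433, 7106, 250857, 152770 and 5775 normalised counts in WT inflamed mice, against 590, 386, 290, 224 and 4723 in WT control mice. Inflamed mice 3 and 4 stood 9.3 times or more above the other inflamed mice, and control mouse 5 stood apart from the other controls, yet no control mouse reached an inflamed one. The log2 fold change was 6.12 ± 1.45 (edgeR adjusted p = 0.00591), 5.2 without inflamed mouse 3 and 7.86 without control mouse 5. Without both inflamed mice 3 and 4, an omission chosen after seeing the data, it was 2.98 (edgeR adjusted p = 0.0458). Il10 encodes the cytokine that restrains macrophage activation. It had 14545, 20171, 16734, 11179 and 12087 normalised counts in WT inflamed mice and 4885, 2553, 3958, 5051 and 1493 in WT control mice. Il10 thus rose beside the inflammatory cytokines, by a log2 fold change of 2.06 ± 0.41 (edgeR adjusted p = 0.00217).

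Tgfb1, the gene of transforming growth factor beta 1, was slightly lower. It had 83487, 90264, 60749, 72388 and 77812 normalised counts in WT inflamed mice and 110944, 111061, 124239, 100867 and 119961 in WT control mice. The groups did not overlap, but the log2 fold change was only -0.56 ± 0.20 (edgeR adjusted p = 0.0426). The adjusted p for Tgfb1 was above 0.05 without any 1 mouse other than inflamed mouse 2 or control mouse 5, at values of -0.60 to -0.49. With the authors' normalised values the difference in Tgfb1 was -0.01.

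Retnla encodes RELM-alpha, a secreted product of cells exposed to IL-4 or IL-13. It had 69.0, 56.8, 97.0, 89.7 and 54.0 normalised counts in WT inflamed mice and 40.4, 37.3, 53.0, 7358 and 68.5 in WT control mice. All mice but control mouse 4 were near background, and the groups overlapped. The log2 fold change of -4.37 ± 1.58 (edgeR adjusted p = 0.0469) rested on control mouse 4, without which it was 0.56 with an adjusted p of 0.117. Leaving out any 1 inflamed mouse also gave an adjusted p above 0.05, at values of -4.49 to -4.27.

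The other 4 members of this list did not pass the test. Mrc1, the mannose receptor gene CD206, had 89.6, 84.6, 687, 738 and 70.1 normalised counts in WT inflamed mice and 113, 265, 93.0, 69.6 and 94.4 in WT control mice. Only inflamed mice 3 and 4 lay above all controls, and the log2 fold change was 1.39 (edgeR adjusted p = 0.165). Without these 2 mice it was -0.64 for Mrc1. Vegfa, the gene of an angiogenic growth factor, had 238 to 8914 in WT inflamed and 391.7 to 3311 in WT control mice, a log2 fold change of 1.38 (edgeR adjusted p = 0.237). Chil3, a chitinase-like gene of monocytes and macrophages, had a log2 fold change of 0.47 and Il10ra, the IL-10 receptor gene, had -0.70.

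Trem1 (transcript NM_021406.5, target positions 1705 to 1804) rose in the cells from inflamed intestine. It had 6615, 2530, 3323, 6688 and 6430 normalised counts in WT inflamed mice, against 740, 617, 3176, 1365 and 301 in WT control mice. Control mouse 3 lay above inflamed mouse 2, so the groups overlapped, and all the other control mice lay below every inflamed mouse. The log2 fold change was 2.04 ± 0.66 (edgeR adjusted p = 0.0317). It was 2.76 without control mouse 3, and the adjusted p was above 0.05, at values of 1.87 to 2.08, without inflamed mouse 1 or 5 or control mouse 1, 2 or 4. Trem2, a related receptor with anti-inflammatory functions in macrophages, had 1654, 475, 6168, 3584 and 1992 in WT inflamed mice and 1988, 2439, 7203, 4912 and 482 in WT control mice. Its groups overlapped broadly, with a log2 fold change of -0.30 (edgeR adjusted p = 0.761).

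Card9, an adaptor that carries signals of C-type lectin receptors, fell and Traf6, a ubiquitin ligase in signalling of Toll-like and IL-1 receptors, did not pass the test. Card9 had 9340, 16225, 14123, 12232 and 9352 normalised counts in WT inflamed mice and 23841, 20635, 32538, 20847 and 20598 in WT control mice. The groups did not overlap, and the log2 fold change was -0.95 ± 0.28 (edgeR adjusted p = 0.0208). Without inflamed mouse 1 or 5 or control mouse 3 the adjusted p was above 0.05, at values of -0.87 to -0.81. Traf6 had a log2 fold change of 0.79 (edgeR adjusted p = 0.105), and 0.98 without inflamed mouse 4 (edgeR adjusted p = 0.0481).

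Of 6 pattern recognition genes, only Cd14 passed the test, as a higher target, where 22.8% of all 57 targets were higher. Cd14 encodes the co-receptor that hands lipopolysaccharide to TLR4. It had 109320, 167302, 116426, 102084 and 117009 normalised counts in WT inflamed mice and 52174, 55285, 97593, 59946 and 40183 in WT control mice. The groups did not overlap, and the log2 fold change was 1.00 ± 0.28 (edgeR adjusted p = 0.014). With TMM scaling or without Actb in the scaling the adjusted p for Cd14 was 0.0541 or 0.0511. Tlr4 itself had 42775, 55254, 12930, 14167 and 34870 in WT inflamed mice and 15138, 19684, 11181, 19408 and 8802 in WT control mice. Inflamed mice 1, 2 and 5 lay above all controls and inflamed mice 3 and 4 within them, and the log2 fold change was 1.11 (edgeR adjusted p = 0.0654). For Tlr4 the adjusted p was 0.0339 without inflamed mouse 3 and 0.041 without inflamed mouse 4. Tlr1, Tlr2, Tlr8 and Nod2, genes of other receptors for microbial products, had log2 fold changes of -0.33, 0.45, -0.32 and 0.78, with edgeR adjusted p-values of 0.668, 0.355, 0.586 and 0.234. The unscaled counts of Tlr2 were only 31 to 168.

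Among antigen presentation and costimulation genes, Cd80 rose. Cd80 encodes a ligand of CD28 on T cells. It had 33540, 63638, 23186, 34432 and 49642 normalised counts in WT inflamed mice and 11494, 9224, 20611, 7613 and 13734 in WT control mice. The groups did not overlap, and the log2 fold change was 1.71 ± 0.37 (edgeR adjusted p = 0.0034). Cd86, the other ligand of CD28, had 6040 to 22527 in WT inflamed and 2909 to 17308 in WT control mice, a log2 fold change of 0.57 (edgeR adjusted p = 0.383).

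H2-Ab1 encodes the beta chain of the MHC class II molecule I-A. It had 2146, 653, 37437, 65228 and 31202 normalised counts in WT inflamed mice, against 134856, 104141, 87587, 91795 and 159722 in WT control mice. Each inflamed mouse lay below each control mouse, and H2-Ab1 was the only 1 of the 19 targets without overlap that missed the threshold. The inflamed mice differed among themselves by 99.9 times from highest to lowest, and the log2 fold change was -2.08 ± 0.92 (edgeR adjusted p = 0.0928). Without inflamed mouse 4 it was -2.69 with an adjusted p of 0.0484. H2-Ab1 also passed with limma (-3.47, adjusted p = 0.0253), in edgeR blocked on multiplier class (-3.79, adjusted p = 0.0407), in the edgeR fit of all 22 intestinal samples (adjusted p = 0.0211) and in edgeR without inflamed mice 3 and 4 (-3.35, adjusted p = 0.032).

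Of 6 monocyte and macrophage surface markers, Csf1r fell and the other 5 did not pass the test. Of all 57 targets, 19.3% were lower. Csf1r encodes the receptor for the growth factor M-CSF. It had 19802, 4916, 19487, 23590 and 16482 normalised counts in WT inflamed mice and 25461, 41643, 52775, 37019 and 23980 in WT control mice. The groups met closely without overlap, and the log2 fold change was -1.10 ± 0.41 (edgeR adjusted p = 0.0483). The adjusted p for Csf1r was above 0.05 without any 1 mouse other than inflamed mice 2 and 4 and control mouse 5, at values of -1.21 to -0.93.

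Siglec1, the sialoadhesin gene, had 72.1, 102.6, 3519, 8184 and 63.5 normalised counts in WT inflamed mice and 3837, 5568, 2216, 3033 and 28140 in WT control mice. Inflamed mice 1, 2 and 5 were far below all controls, while inflamed mice 3 and 4 were within their range. The log2 fold change was -1.84 with a 95% interval of -4.80 to 1.12 (edgeR adjusted p = 0.306). For Siglec1 it was -3.19 without inflamed mouse 4 and -0.62 without control mouse 5. Ly6c1 is a Ly6C gene, and whether its probe also reads the closely similar Ly6c2 was not tested. It had 57870, 12736, 737, 828 and 33181 in WT inflamed mice and 17641, 2020, 1437, 2361 and 36606 in WT control mice. Both groups were wide, and the log2 fold change was 0.81 (edgeR adjusted p = 0.617), with -0.02 for Ly6c1 without inflamed mouse 1 and 1.84 without control mouse 5. Adgre1, the F4/80 gene, Cd68, a lysosomal glycoprotein gene, and Fcgr1, the high-affinity IgG receptor gene, had log2 fold changes of -0.57, -0.32 and -0.26, with edgeR adjusted p-values of 0.53, 0.668 and 0.602.

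None of the 3 NF-kappaB subunit genes and none of the 5 myeloid transcription factor genes passed the edgeR test with housekeeping scaling. Irf4 was the only 1 of these 8 with an unadjusted p under 0.05. Of all 57 targets, 42.1% passed. Nfkb1 had 27115 to 55129 normalised counts in WT inflamed and 31221 to 49227 in WT control mice, a log2 fold change of -0.10 with a 95% interval of -0.72 to 0.52. Nfkb2 had 0.16 with an interval of -0.62 to 0.94, and Relb had 0.64 with an interval of -0.37 to 1.64. The NF-kappaB proteins are held in the cytoplasm and act by moving to the nucleus, which transcript levels do not measure. Spi1, encoding the myeloid master regulator PU.1, had 46690 to 97756 in WT inflamed and 79405 to 101314 in WT control mice, a log2 fold change of -0.32. Irf4, a factor of dendritic cells and of alternative activation, had 2074 to 3312 in WT inflamed and 2150 to 6708 in WT control mice, a log2 fold change of -1.07 (edgeR adjusted p = 0.0564). Without control mouse 5, whose Irf4 was the lowest of the controls, it was -1.26 with an adjusted p of 0.0122. Irf4 also passed the edgeR test with TMM scaling (adjusted p = 0.0163), DESeq2 size factors (0.00875), total-count scaling (0.0294), without Actb (0.0297) and in the fit of all 22 intestinal samples (0.00923). Cebpb, Irf5 and Stat6 had log2 fold changes of 0.42, -0.47 and -0.48.

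Ratios of 2 targets within a mouse do not depend on the scaling. Of 12 ratios computed, 7 differed between the groups by an exact two-sided permutation test with Benjamini-Hochberg adjustment over the 12, and 5 of the 7 had no overlap of the groups. These 5 each had an exact permutation p = 0.0079, the smallest that 5 against 5 mice can give, and an adjusted p of 0.019. The Ccl2 to Ccr2 count ratio was 1.06, 3.62, 0.662, 0.777 and 3.40 in WT inflamed mice, against 0.0545, 0.0288, 0.0522, 0.0743 and 0.0394 in WT control mice. Ligand and receptor thus moved apart by a log2 difference of 4.95, and the lowest inflamed mouse was far above the highest control mouse. Every inflamed mouse was already above every control mouse in Ccl2 and below every control mouse in Ccr2. This ratio therefore could not overlap, and its p-value adds nothing to those 2 results. The Cxcl1 to Cxcl9 ratio, a neutrophil attractant over a T cell attractant, was higher by 7.63 on the log2 scale, and by 8.56 without control mouse 3. Against Cxcl10 it was higher by 4.32, and by 5.04 without control mouse 4 and 3.74 without control mouse 5.

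Il1a over Il1b differed by 2.69 on the log2 scale, with ratios of 1.16 to 1.65 in WT inflamed mice and 0.130 to 0.351 in WT control mice. Il1a therefore rose more than Il1b in the same samples. Arg1 over Mrc1 differed by 4.91, with ratios of 81.3 to 364 in WT inflamed mice and 1.45 to 49.4 in WT control mice. Control mouse 5 had the ratio of 49.4, and without it the difference was 5.73. Il6 over Tnf differed by 2.52 and Trem1 over Trem2 by 2.64, both with exact permutation p = 0.0159 and an adjusted p of 0.0272, and both with overlap of the groups. For Il6 over Tnf the difference was 2.16 with a pseudocount of 20 (adjusted exact permutation p = 0.0544) and 3.14 with the negative-control mean subtracted, so its size is not firm where Il6 is near background.

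Il10 and Tnf, an inhibitory and an inflammatory cytokine, did not differ in their ratio by this test. Il10 over Tnf was 0.203, 0.153, 0.147, 0.0993 and 0.190 in WT inflamed mice and 0.282, 0.162, 0.116, 0.119 and 0.2 in WT control mice, a log2 difference of -0.11 (exact permutation p = 0.7222). The groups overlapped almost wholly. Cd80 over Cd86, Ccr2 over Cx3cr1, Nfkb2 over Nfkb1 and Tlr4 over Tlr2 had log2 differences of 1.04, 1.32, 0.38 and 0.58, with adjusted exact permutation p-values of 0.201, 0.119, 0.276 and 0.58.

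**Figure D4:**
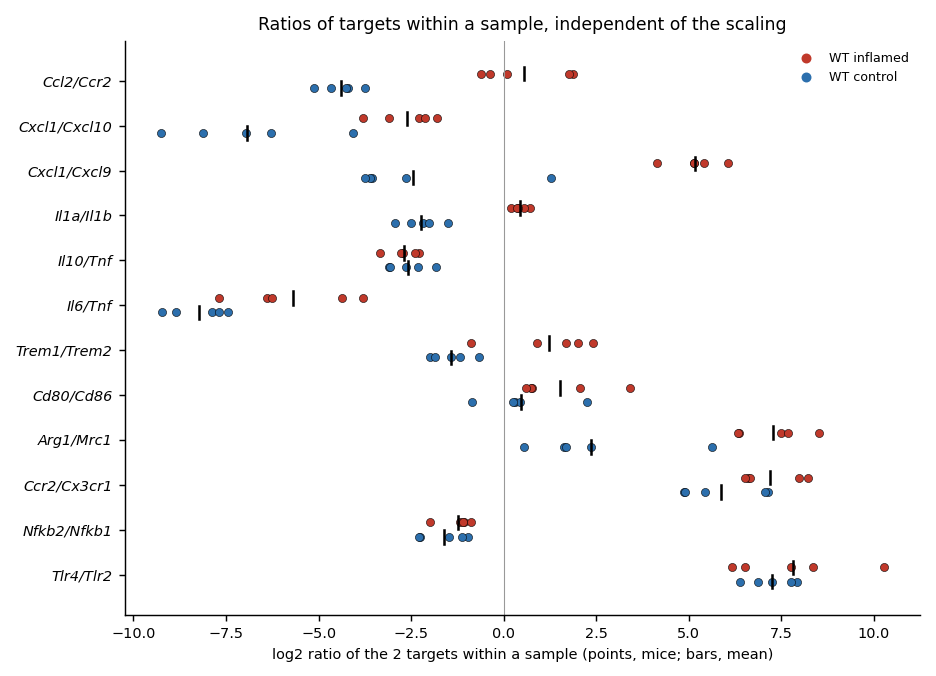
Log2 ratio of 2 targets within each WT inflamed mouse (upper row of each pair) and each WT control mouse (lower row), with a bar at the group mean. The Cxcl1 to Cxcl9 ratio ran from 4.14 to 6.06 in WT inflamed mice and from -3.74 to 1.27 in WT control mice.

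The markers of the labelled cell type were measured in every sample. Their summed levels below are descriptions set mainly by the target with the highest counts, and they do not measure the share of a cell type. Of 4 monocyte markers used here, of 5 listed (Ccr2, Ly6c1, Chil3 and Spi1), the summed level was 141463 to 354171 normalised counts in WT inflamed and 205454 to 329884 in WT control mice, and only Ccr2 fell. Of 6 macrophage markers with values, of 8 listed (Csf1r, Cx3cr1, Mrc1, H2-Ab1, Adgre1 and Trem2), the sum was 6324 to 95405 in WT inflamed and 137876 to 185173 in WT control mice, and 2 fell. Of 5 dendritic cell markers with values, of 7 listed (Itgax, Ccr7, Irf4, H2-Ab1 and Ccl22), the sum was 6312 to 71984 in WT inflamed and 102552 to 165971 in WT control mice, and 1 fell. Over all 57 targets, 19.3% were lower. H2-Ab1 made up most of both sums in WT control mice. Without it the macrophage markers summed to 5671 to 30178 in WT inflamed and 25451 to 64696 in WT control mice, and the dendritic cell markers to 4689 to 8475 in WT inflamed and 6248 to 18461 in WT control mice. All of these markers were above the background limit in every mouse. Some were low, with 42 counts of Cx3cr1, 61 of Mrc1 and 67 of Itgax in inflamed mouse 2, where the limit was 16.7. Markers of lymphocytes and of epithelium had no values, so such cells could not be looked for. The part of a changed mix of cells in the lower levels of Cx3cr1, Csf1r and Itgax was not tested.

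The inflamed mice were not alike, and mice 3 and 4 stood together. For 26 of 57 targets both lay outside the range of inflamed mice 1, 2 and 5, 17 above and 9 below, against 17 of 57 targets for control mice 3 and 4 relative to control mice 1, 2 and 5. Any 2 mice of a group lie together outside the range of the others for some targets by chance, and these counts were not tested. Siglec1 was at least 34.3 times higher in inflamed mice 3 and 4 than in the other inflamed mice, Arg1 9.3 times, Mrc1 7.67 times, Itgax 3.17 times and Vegfa 2.85 times. Ly6c1 was lower by at least 15.38 times and Tlr4 by 2.46 times. The group difference nevertheless dominated, since in a principal component analysis of log2 levels the first component, with 56.9% of the variance, ran from 7.21 to 10.41 in WT inflamed and from -9.55 to -6.56 in WT control mice. On the second component, with 18%, inflamed mice 3 and 4 scored 7.60 and 8.91 and the other inflamed mice -7.43 to -3.35, while the control mice lay between -2.65 and 1.09. Inflamed mice 3 and 4 also had the lowest positive control values of all 10 samples. Their total gene counts, 942334 and 925869, and their housekeeping scaling factors, 0.588 and 0.58, were the lowest as well. Their deposited counts carried a multiplier, as did those of control mice 3 and 4 and of inflamed mouse 5. The part of these features in the split was not tested.

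**Figure D5:**
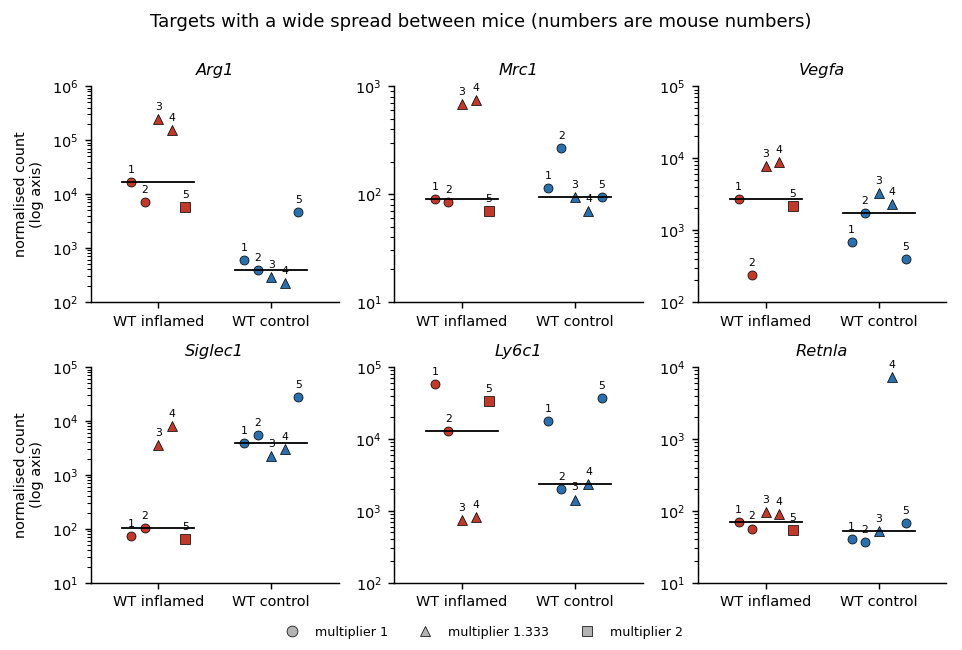
Normalised counts on a log axis for genes with a wide spread between mice, with WT inflamed mice on the left of each pair and WT control mice on the right. Mouse numbers stand at the points, a bar marks the group median and symbols mark the multiplier of the deposited counts. Retnla spread in the WT control mice, from 37.3 to 7358, and ran only from 54.0 to 97.0 in the WT inflamed mice. Siglec1 ran from 63.5 to 8184 and Ly6c1 from 737 to 57870 in the WT inflamed mice.

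Within the samples of 1 multiplier class the main results took the following values. Among inflamed mice 1 and 2 and control mice 1, 2 and 5, whose counts were deposited without a multiplier, the log2 fold change was 4.22 for Il1a, 5.31 for Il6, 6.14 for Ccl7, 2.65 for Ccl2 and 2.91 for Tnf. Among mice 3 and 4 of both groups, which carried the same multiplier, it was 3.80 for Il1a, 3.83 for Il6, 8.49 for Ccl7, 2.87 for Ccl2 and 1.57 for Tnf. All these had an edgeR adjusted p under 0.05 in both classes, as did the lower Cxcl9, at -4.23 and -4.83. The cytokine and chemokine increases were thus present in both classes.

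The other genes named here passed the test in 1 class only. Arg1 had a log2 fold change of 2.63 without the multiplier (edgeR adjusted p = 0.0945) and 9.62 with it. H2-Ab1 had -6.57 without the multiplier (edgeR adjusted p = 2.79e-06) and -0.80 with it. Inflamed mouse 5, with a multiplier of 2, is in neither class. Its H2-Ab1 level of 31202 normalised counts lay near that of inflamed mouse 3 (37437) and far above inflamed mice 1 and 2 (2146 and 653). Its levels of Arg1, Mrc1 and Siglec1 (5775, 70.1 and 63.5) were instead the lowest of the inflamed mice. Mrc1 had -0.85 without the multiplier and 3.13 with it (edgeR adjusted p = 0.00026). Siglec1 had -7.16 (edgeR adjusted p = 0.00116) and 1.16, and Ccr2 had -2.73 and -0.64. Trem1 had 3.05 without the multiplier (edgeR adjusted p = 0.0357) and 1.14 with it (edgeR adjusted p = 0.202). Cx3cr1 had -3.31 without the multiplier (edgeR adjusted p = 0.0501) and -3.88 with it, and Cd80 had 2.08 and 1.03, the second with an edgeR adjusted p of 0.0925. A difference between the classes was not tested, and each class holds only 2 inflamed mice. The classes set inflamed mice 1 and 2 against inflamed mice 3 and 4, so class and the split of mice 3 and 4 cannot be told apart.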

How the data were processed

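The authors deposited raw counts of barcodes for each probe. They also deposited normalised values, which equal a sample's raw values times 1 factor and are treated as a score because no unit is stated in the sources used here. The counting software is not given in the sources used here. Of the 10 samples, 5 held plain counts. The other 5 held what is here called deposited expected counts, in that all gene and control values were whole numbers (100.0%, tolerance 0.0001) times a multiplier of about 4/3 (4 samples) or 2 (inflamed mouse 5). The reason for the multiplier is not given in the sources used here. It was divided out before testing.

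A target was tested if above background in at least 3 samples, which all 57 were (55 in all 10). Counts scaled by Actb, Gapdh and Rpl19 were tested with edgeR 4.0.16 in R 4.3.3 (glmQLFit and glmQLFTest, two-sided, no block, threshold 0.05). Ratios used log2 of count plus 1. limma 3.58.1 and DESeq2 1.42.0 served as alternatives. Python 3.11.15 with matplotlib 3.10.9, scipy 1.17.1, numpy 2.4.6 and pandas 2.3.3 made tables, permutation tests and figures. The edgeR fit, the permutation test and the adjustment were tested on simulated data. No molecular identifiers are described for the pre-amplified cDNA, so depth says nothing of the number of original molecules. No 2 samples of a group were copies (lowest chi-square per degree of freedom 637.3). Of 60 transcripts, 57 matched RefSeq, and 37 of 57 targets had a promoter window. No label says that same-numbered mice shared a day or a litter, so the number was not used as a block. Deviations of same-numbered mice from their group means correlated at -0.319 to 0.305, highest for mouse 1.

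The members, gene lists, ratios and tests were chosen with earlier results of these data known, and Ccl8, Cd44, Cd68, Fcgr1, Siglec1, Tlr8 and Ly6c1 were placed in lists after the panel was seen. Every target with values could be named, except 2 that were tested with the others but are not reported here and are left out of the lists, marker sums and figures. Alternatives were other scalings, tests, filters, pseudocounts, blocks, multiplier classes and leaving out each mouse.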

Additional observations from a re-analysis of the deposited data

Results flagged for a closer look

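In 12 of 110 sets of 5 mice for 1 target, 1 mouse stood apart from the other 4 by Dixon's criterion. For normally distributed values, chance alone gives this in about 1 set in 20. The criterion was applied to normalised counts without a log, and their distribution was not tested. The 12 sets can therefore not be read as an excess over chance. Control mouse 5 gave 4 of the 12, with 442.2 normalised counts of Ccl7 (nearest other control 115.8), 41.4 of Il6 (69.6), 4722.9 of Arg1 (589.9) and 28139.8 of Siglec1 (5567.8). Among the other control mice, mouse 1 had 144900.4 of Chil3 (64289.5), mouse 2 had 265.0 of Mrc1 (113.0), mouse 3 had 32537.9 of Card9 (23841.3) and mouse 4 had 7357.6 of Retnla (68.5). Inflamed mouse 1 had 638.2 of Cxcl11 (nearest other inflamed mouse 134.6) and 324.3 of Ccr9 (163.6). Inflamed mouse 2 had 167302.1 of Cd14 (117008.8), and inflamed mouse 4 had 7484.8 of Il23a (2263.0).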

How the results depend on the processing

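Under 32 alternatives (31 for Trem1 and Retnla), 11 of the 24 calls held in every one, among them Ccl2, Ccl7, Cxcl1, Il10, Il1a, Il1b, Il23a, Il6 and Tnf as higher and Cxcl9 as lower. Of the 33 targets not called, 22 were called in none and 11 in some, and 21 changed sign in some. Higher targets numbered 12 to 16. Lower targets numbered 11, and 9 to 12 under other settings, except 3 with positive-control scaling, 3 without Rpl19 and 3 with the authors' normalised values, 6 in samples without a multiplier, 5 with the replicate block and 4 to 11 with 1 mouse left out; the cause was not tested. The median log2 fold change ran from -0.29 (total-count scaling, or without Actb) to 0.51. Retnla reversed to 0.37 in samples without a multiplier and 0.56 without control mouse 4 (-4.68 to 0.56 over mice left out), and Fcgr1 to 0.81 in mice 3 and 4. Mrc1, not called at 1.39, was -0.85 in samples without a multiplier. The omission of inflamed mice 3 and 4 (14 higher, 9 lower) and Gapdh alone (13 higher, 10 lower) were chosen after seeing the data. No label pairs same-numbered mice, which correlated at -0.319 to 0.305, so the replicate block (13 higher, 5 lower) pairs by number only. With that block the smallest possible exact sign-flip p of a ratio is 0.0625. Il6 over Tnf was 2.16 (adjusted exact permutation p = 0.0544) with a pseudocount of 20, and Cd80 over Cd86 ranged from 0.56 to 1.48 with 1 mouse left out. Targets near background, such as Il6 and Retnla in control mice, have uncertain fold changes. So do targets with low counts in 1 group, such as Ccl7 and Il23a in control mice and Cxcl9 in inflamed mice. The same holds for targets with low counts in both groups, such as Ccl8, Ccr9 and Tlr2.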
